A study of Mus musculus with 6 samples.

Results

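The receptors for serotonin, for noradrenaline and adrenaline, and for acetylcholine were examined in mouse primary somatosensory (S1) cortex with and without whisker stimulation. Their genes were taken by symbol, and 37 of the 14824 listed genes matched. There were 13 serotonin receptor genes (Htr), 9 adrenergic receptor genes (Adra and Adrb), 4 muscarinic acetylcholine receptor genes (Chrm) and 11 nicotinic acetylcholine receptor subunit genes (Chrn). The rule reads symbols and uses no measured value. A RefSeq gene table holds 44 genes of these families, and Htr3b, Chrm5, Chrna9, Chrna10, Chrnd, Chrne and Chrng were not among the rows used here.

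Bulk RNA-seq was performed on 6 libraries from wild-type (WT) C57B6 mice at postnatal day 21. The 3 WS libraries came from S1 cortex with whisker stimulation, and the 3 NS libraries, titled NW control, had the treatment "none". According to the methods, the whiskers of the right side were brushed by hand every day, and cortex was collected 90 min after the last stimulation. The study gives mice as the unit of the RNA-seq replicates and elsewhere took the barrel cortex of the unstimulated side as its control, but the labels do not say which NS and WS libraries share an animal. RNA was accepted from an integrity number above 2, and the number of each sample was not used here. The comparison asks which receptor transcripts differ in S1 cortex after repeated sensory stimulation.

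Serotonin, noradrenaline and acetylcholine reach the cortex on long axons from the raphe nuclei, the locus coeruleus and the basal forebrain, whose cell bodies lie outside it. Most of their receptors are G protein-coupled: the Gq group raises calcium through phospholipase C, the Gi group lowers cyclic AMP and opens potassium channels, and the Gs group raises cyclic AMP. The nicotinic receptors and the Htr3a receptor are ion channels built of several subunits. In sensory cortex these systems are known for setting arousal, gain and plasticity.

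The libraries held between 15660395 and 17276168 counts over the listed genes. WS replicates 1 and 3 stood furthest apart, with a chi-square per degree of freedom of 20.3 over genes, against 4.29 to 12.3 for the other pairs of libraries and 5.90 to 6.44 within NS. Values are given as counts per 1000000 counts of the TMM-normalized library size (CPM), and levels of different genes are compared only as CPM per kilobase of annotated exon. Excitatory neuron markers were abundant, with Camk2a at 3980 CPM or more and Slc17a7 at 1910 CPM or more in every library, and all 4 layer markers were listed. Markers of the cells that make the transmitters (4 of 6 listed) summed to between 2.84 and 4.44 CPM per library, and the serotonin and noradrenaline transporter genes Slc6a4 and Slc6a2 were not among the rows used. The 3 endothelial markers summed to between 65.1 and 69.9 CPM in NS and between 83.6 and 93.6 CPM in WS, without overlap, led by Pecam1 at 17.2, 16.3 and 19.2 CPM in NS and 22.2, 33.0 and 41.5 CPM in WS. In bulk tissue, fewer cells of a type and less RNA per cell cannot be told apart.

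The receptors covered a wide range of levels. Chrm1, the main Gq-coupled muscarinic receptor of cortical pyramidal neurons, was the highest member at 37.3 CPM per kilobase over the 6 libraries, with a range of 31.1 to 42.6. Chrm4, a Gi-coupled muscarinic receptor, followed at 28.4 CPM per kilobase, but its annotated length of 1440 bases covers only the coding sequence, which raises this quotient. Adra1d, a Gq-coupled alpha-1 adrenergic receptor, stood at 27.8 CPM per kilobase, and the ranges over libraries of Chrm1, Chrm4 and Adra1d overlapped.

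Next came Adrb1, the main beta-adrenergic receptor of cortical neurons, at 14.2 CPM per kilobase, in a range over libraries that met that of no neighbour. Chrm3 was at 10.7, Chrna4 at 9.74 and Adra1b at 9.19 CPM per kilobase with overlapping ranges, and Chrnb2 lay apart below them at 6.57 CPM per kilobase. The highest serotonin receptors were lower on this scale, with Htr1a at 5.19 and Htr5a at 5.08 CPM per kilobase. At the bottom were Chrna2 at 0.128 and Adra2b at 0.0776 CPM per kilobase.

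**Figure D1:**
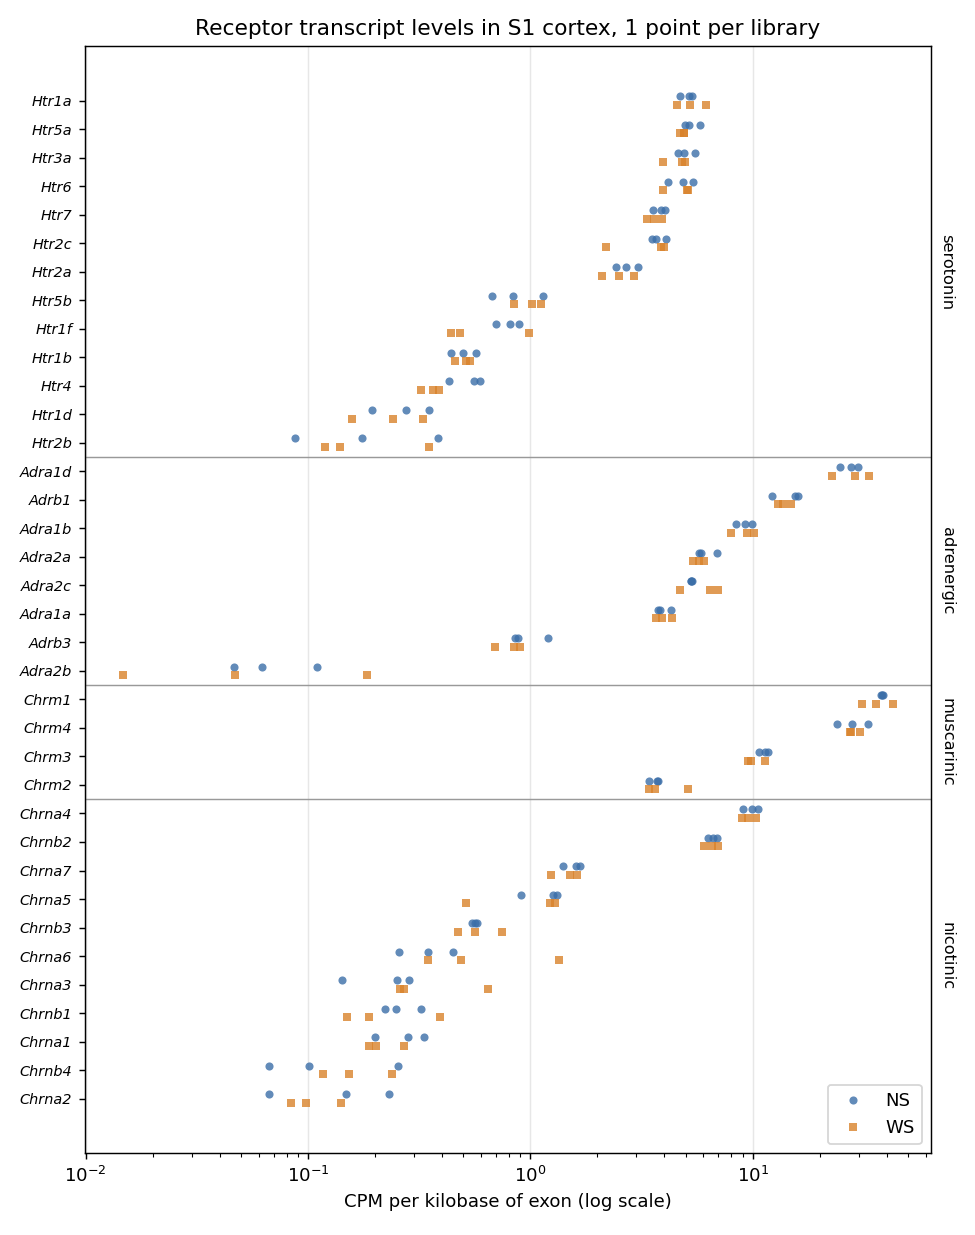
Level of the receptor genes in each library, as CPM per kilobase of exon on a log axis, grouped by receptor class. NS libraries are circles and WS libraries are squares. In most genes the circles and squares intermingle, and Chrm1 at the top reaches 31.1 to 42.6 CPM per kilobase.

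The 2 groups were compared across 13747 genes with the quasi-likelihood test of edgeR. Of the 37 receptor genes 33 passed the filter on low counts, and Adra2b, Chrna2, Chrnb4 and Htr2b, with 1 to 15 counts per library, did not. Among the 33, 0 had an adjusted p under 0.05 (quasi-likelihood test of edgeR, Benjamini-Hochberg adjustment, lowest adjusted p = 0.9998), against 0.0364% of all genes tested. DESeq2 also called 0. At an unadjusted p under 0.05, 1 receptor gene (3.03%) was lower in WS, Htr4, against 0.327% of all genes, and 0 were higher, against 0.866%. In 2 receptor genes (6.06%), Htr4 and Htr5a, all 3 WS values lay below all 3 NS values, against 3.16% of all genes, and in 0 they lay above, against 3.11%. With the replicate number as a block, Htr4 was again the 1 lower gene (0.386% of all genes were lower), and 2 genes (6.06%), Chrna3 and Chrna6, were higher, against 1.38%.

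How small a difference could be seen depended on the level. In the 20 tested members with at least 100 counts on average, the SE of the log2 fold change was 0.09 to 0.18, and the 95% interval lay within 0.5 of zero on either side for 19 of them and within 1 for all 20. In the 13 members below 100 counts the SE was 0.20 to 0.47, and the interval lay within 1 of zero for 8. A change of the size of a doubling was therefore outside the interval for 28 of the 33 tested members.

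The log2 fold change was negative in 23 of the 33 tested members, or 69.7%, while 47.0% of all genes tested were lower in WS. The median was -0.06 over the members and 0.01 over all genes, whose 5th and 95th percentiles were -0.17 and 0.26. By class, 10 of 12 serotonin receptor genes, 5 of 8 adrenergic, 2 of 4 muscarinic and 6 of 9 nicotinic genes had a negative value, with medians of -0.12, -0.01, -0.03 and -0.03. By coupling, medians were -0.06 for the 7 Gq-coupled members, 0.00 for the 10 Gi-coupled, -0.07 for the 6 Gs-coupled and -0.07 for the 10 ion channel subunits. No test was made of a class.

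**Figure D2:**
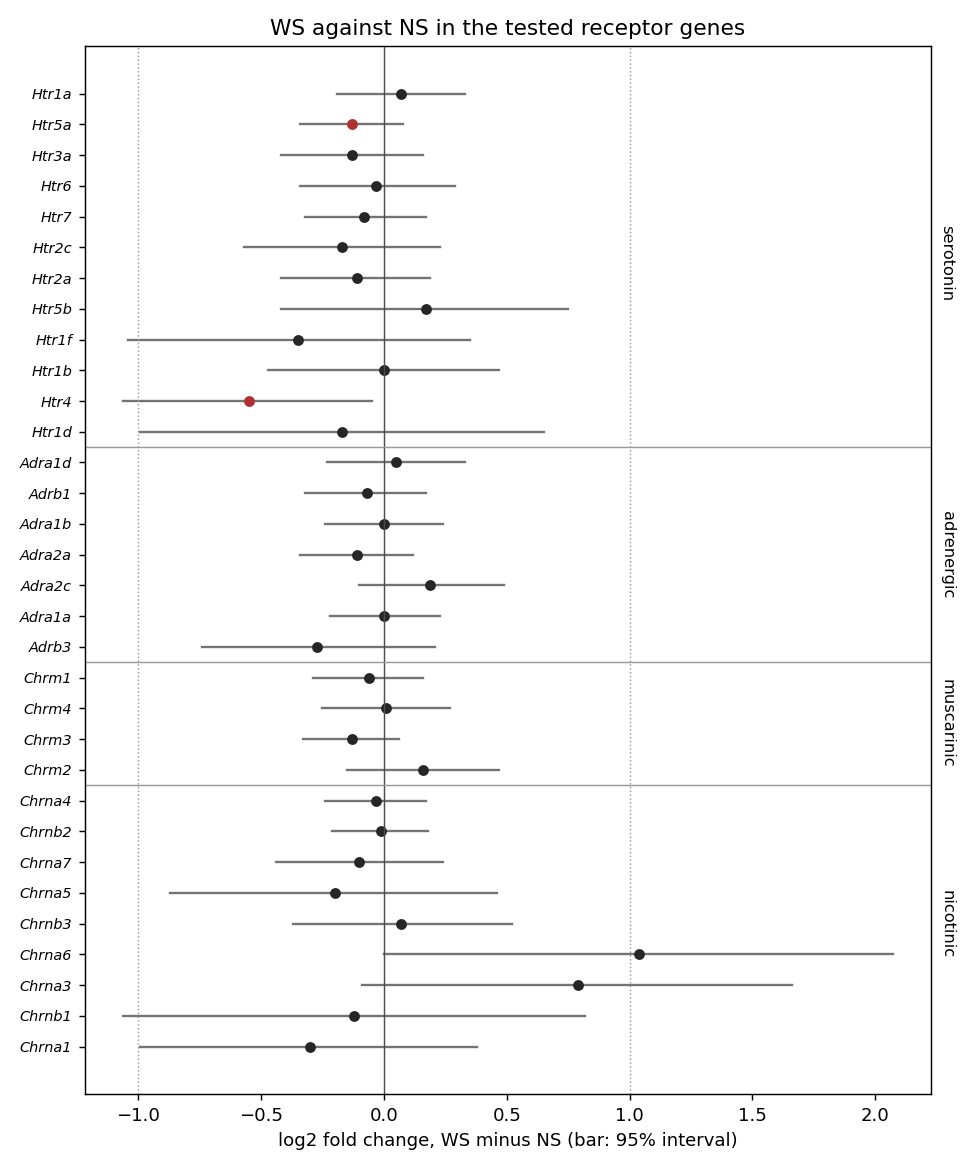
Log2 fold change (WS minus NS) of the tested receptor genes with its 95% interval, ordered by class and then by level, with dotted lines at 1 and -1. Red points mark Htr4 and Htr5a, whose 3 WS values all lay below the 3 NS values; the interval of Htr4 runs from -1.06 to -0.05, and those of the other members drawn include zero.

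The summed level of the serotonin receptor genes was 33.5, 33.5 and 34.0 CPM per kilobase in NS and 31.9, 32.2 and 31.4 CPM per kilobase in WS. The groups did not overlap, with means of 33.7 ± 0.237 (SD, n = 3) in NS and 31.8 ± 0.424 in WS. The other classes overlapped. Adrenergic receptors summed to 68.3 ± 4.49 and 68.6 ± 8.41 CPM per kilobase in NS and WS, muscarinic receptors to 81.2 ± 4.33 and 79.3 ± 5.64, and nicotinic subunits to 21.1 ± 0.959 and 21.1 ± 2.19 (SD, n = 3 each). The separation of the serotonin sums rests on Htr2c, which was low in WS replicate 1 as described next. Without Htr2c, left out after the data were seen, the sums were 29.5, 29.9 and 30.4 CPM per kilobase in NS and 29.8, 28.2 and 27.5 CPM per kilobase in WS, and WS replicate 1 lay inside the NS range.

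Htr4, a Gs-coupled serotonin receptor, had the lowest log2 fold change of the members. It was counted 46, 44 and 34 times in NS replicates 1, 2 and 3 and 32, 29 and 25 times in WS replicates 1, 2 and 3, or 2.90, 2.75 and 2.11 CPM against 1.90, 1.79 and 1.58 CPM. Every WS library was below every NS library, and the gap between the closest, NS replicate 3 and WS replicate 1, was 2 counts. The log2 fold change was -0.55 (SE 0.23), with an unadjusted p = 0.0339 and an adjusted p = 0.9998 (quasi-likelihood test of edgeR, Benjamini-Hochberg adjustment). An exact two-sided permutation test over the 6 libraries gave p = 0.1, the smallest that 3 against 3 allows. The log2 fold change was -0.68 to -0.46 when each library was left out in turn, and the unadjusted p rose to 0.113 without NS replicate 1, 0.0944 without NS replicate 2, 0.0601 without WS replicate 2 and 0.0971 without WS replicate 3.

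Htr5a, a Gi-coupled receptor, was measured at 26.7, 27.8 and 31.2 CPM in NS and 26.3, 25.4 and 26.5 CPM in WS. The groups touched without overlapping, at 26.7 and 26.5 CPM, and the highest NS library stood apart from the rest. The log2 fold change was -0.13 (SE 0.10, unadjusted p = 0.194 by edgeR's quasi-likelihood test), and -0.06 without NS replicate 3.

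Among the other Gi-coupled serotonin receptors, Htr1a, the inhibitory autoreceptor of the raphe that is also found on cortical pyramidal neurons, was at 24.0, 23.2 and 21.1 CPM in NS and 27.7, 20.4 and 23.4 CPM in WS. Its WS values enclosed the NS values, and its log2 fold change of 0.07 (SE 0.12) became -0.055 without WS replicate 1. Htr1b, a presynaptic receptor, stayed at 2.37 ± 0.302 CPM in NS and 2.37 ± 0.187 CPM in WS (SD, n = 3 each). In the annotation, 18.0% of its exon bases are shared with an antisense transcript, and whether the counting used strand is not given in the sources used here.

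Htr1f was counted 33, 29 and 37 times in NS and 19, 20 and 40 times in WS. Both low values were WS replicates 1 and 2, and WS replicate 3 was the highest of all 6, so the log2 fold change of -0.35 (SE 0.32) became -0.80 without WS replicate 3 (unadjusted p = 0.0195, edgeR's quasi-likelihood test). Htr1d and Htr5b were low, at 8 to 18 and 21 to 35 counts per library, with log2 fold changes of -0.17 (SE 0.38) and 0.17 (SE 0.27).

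Of the Gq-coupled serotonin receptors, Htr2a, the target of serotonergic hallucinogens on deep-layer pyramidal neurons, was at 15.1, 17.0 and 13.6 CPM in NS and 11.8, 14.1 and 16.4 CPM in WS, and the groups overlapped. Htr2c, which is highly expressed in choroid plexus as well as in neurons, was counted 601, 551 and 529 times in NS and 342, 600 and 570 times in WS. WS replicate 1 alone was low, and the log2 fold change went from -0.17 (SE 0.18) to 0.06 without it. Htr2c ranked 31 of 13747 genes for a low value in that library. The 5 listed choroid plexus markers summed to 33.3, 48.9 and 79.2 CPM in NS and 10.2, 93.5 and 51.8 CPM in WS, with none at 0, and each of the 5 was lowest in WS replicate 1 as well. Their part in the Htr2c value was not tested, and NS replicate 1, next lowest in that sum, had the highest Htr2c. Htr2b, the receptor of heart valves and other peripheral tissue, had 3 to 13 counts and was not tested.

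The Gs-coupled Htr6, a receptor enriched in forebrain neurons, and Htr7, a receptor of thalamus and cortex, had log2 fold changes of -0.03 (SE 0.14) and -0.08 (SE 0.11). Htr6 was counted 154, 182 and 203 times in NS and 203, 190 and 146 times in WS, and Htr7 217, 194 and 212 times in NS and 225, 185 and 193 times in WS. Htr3a, the channel subunit that marks a large class of cortical interneurons, was counted 153, 163 and 183 times in NS and 169, 166 and 130 times in WS, and its log2 fold change of -0.13 (SE 0.13) was close to its SE. The groups overlapped in all 3 genes.

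The alpha-1 adrenergic receptors, which couple to Gq, overlapped between the groups. Adra1d was at 46.8, 56.2 and 52.7 CPM in NS and 63.1, 54.6 and 43.2 CPM in WS, so that its highest and its lowest value were both in WS. Its log2 fold change of 0.05 (SE 0.13) turned to -0.02 without NS replicate 1 and -0.085 without WS replicate 1. Adra1a and Adra1b had log2 fold changes of 0.00 (SE 0.10) and 0.00 (SE 0.11), with means of 34.5 and 31.1 CPM in NS and 34.6 and 31.0 CPM in WS.

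Of the Gi-coupled alpha-2 receptors, Adra2a, the autoreceptor of noradrenergic neurons and a postsynaptic receptor in cortex, was at 33.5, 28.3 and 27.6 CPM in NS and 29.3, 27.6 and 26.0 CPM in WS. Adra2c was at 18.3, 18.2 and 18.1 CPM in NS and 24.0, 22.1 and 16.2 CPM in WS. Its NS libraries were almost equal, at 290, 291 and 292 counts, and WS replicates 1 and 2 lay above them and WS replicate 3 below. Adra2c had a log2 fold change of 0.19 (SE 0.13, unadjusted p = 0.181), and 0.34 without WS replicate 3 (unadjusted p = 0.0043, both by edgeR's quasi-likelihood test). Adra2b had 1 to 12 counts per library and was not tested.

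The beta receptors couple to Gs. Adrb1 was at 41.2, 52.2 and 54.0 CPM in NS and 50.2, 46.3 and 43.7 CPM in WS, with all WS values inside the NS range. Adrb3, the receptor of brown and white fat, had the largest absolute log2 fold change of the adrenergic genes, -0.27 (SE 0.22), at 64, 46 and 48 counts in NS and 51, 46 and 37 counts in WS. These groups overlapped, the log2 fold change was -0.10 without NS replicate 1, the highest library, and 24.9% of the Adrb3 exon bases are shared with an antisense transcript.

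Chrm1 and Chrm3 held the highest counts of the members. Chrm1 was at 248, 244 and 250 CPM in NS and 276, 232 and 202 CPM in WS. NS libraries were alike and WS libraries spread to both sides of them, with SDs of 3.20 and 37.6 CPM. The excitatory neuron marker Slc17a7 had the same order in WS, at 2230, 2330 and 2350 CPM in NS and 2540, 2270 and 1910 CPM in WS, while the 5 excitatory markers summed to 6970 to 7380 CPM in NS and 6600 to 7870 CPM in WS, and their part in the Chrm1 values was not tested. For Chrm1 the log2 fold change of -0.06 (SE 0.10) became 0.04 without WS replicate 3 and -0.19 without WS replicate 1. Chrm3, the other Gq-coupled one, was at 72.9, 71.0 and 66.6 CPM in NS and 71.0, 59.4 and 61.5 CPM in WS, and its log2 fold change of -0.13 (SE 0.09, unadjusted p = 0.166) became -0.21 without WS replicate 1 (unadjusted p = 0.017, both by edgeR's quasi-likelihood test).

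The Gi-coupled Chrm4, abundant in striatal neurons as well as in cortex, was at 34.5, 40.2 and 47.5 CPM in NS and 39.6, 43.7 and 39.7 CPM in WS. Chrm2, a presynaptic autoreceptor on cholinergic axons that is also found in cortical and thalamic neurons, had the largest log2 fold change of its class, 0.16 (SE 0.14). It was at 20.6, 22.7 and 22.5 CPM in NS and 20.6, 22.0 and 30.9 CPM in WS. WS replicate 3 alone was high, and without it the log2 fold change was -0.04.

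The nicotinic subunits divide into the common cortical ones and the scarce ones. Chrna4 and Chrnb2, which together form the main high-affinity nicotinic receptor of the brain, were at 49.5 ± 3.73 and 55.3 ± 2.74 CPM in NS and at 48.3 ± 3.42 and 54.8 ± 4.15 CPM in WS (SD, n = 3 each). Their values over the 6 libraries varied least of all members, with coefficients of variation of 6.68% and 5.73%. Log2 fold changes were -0.03 (SE 0.09) and -0.01 (SE 0.09), with 95% intervals of -0.24 to 0.17 and -0.21 to 0.18. Chrnb2 shares 16.3% of its exon bases with Adar on the other strand. Chrna7, which forms the fast channel of a single kind of subunit, was at 7.05 ± 0.633 CPM in NS and 6.57 ± 0.905 CPM in WS.

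Chrna6 and Chrna3, subunits best known from the midbrain, the medial habenula and autonomic ganglia, had the highest log2 fold changes of all members. Chrna6 was counted 16, 21 and 12 times in NS and 17, 23 and 62 times in WS. Chrna3 was counted 21, 24 and 12 times in NS and 24, 22 and 54 times in WS. In both genes WS replicates 1 and 2 were close to the NS libraries and WS replicate 3 was far above all others.

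For Chrna6 the log2 fold change was 1.04 (SE 0.47), with an unadjusted p = 0.0501 in edgeR's quasi-likelihood test. It was 0.94 with the replicate block (unadjusted p = 0.0125, edgeR) and 0.25 in the unblocked fit without WS replicate 3 (unadjusted p = 0.521, edgeR). For Chrna3 it was 0.79 (SE 0.40), with an unadjusted p = 0.0746 in the same edgeR test, 0.74 with the replicate block (unadjusted p = 0.0374) and 0.23 without WS replicate 3 (unadjusted p = 0.539). The adjusted p of both genes was 0.9998 or higher with and without the block (edgeR, Benjamini-Hochberg). In both genes the sizes of these log2 fold changes thus rest on WS replicate 3.

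Among 13747 genes ranked by how far WS replicate 3 exceeded the next library, Chrna6 was 3 and Chrna3 was 9. The first 2 were the transcription factor genes Ebf3 (12, 13 and 14 counts in NS, 9, 14 and 83 in WS) and Tfap2b (25, 18 and 13 counts in NS, 13, 13 and 71 in WS), and Arc, an activity-induced gene, was 4 (1963, 1852 and 2923 counts in NS, 3442, 3709 and 7765 in WS, all WS above all NS). Agt, the angiotensinogen gene, was 7, at 294, 241 and 199 counts in NS and 332, 321 and 650 in WS. These 4 genes were named after their values were seen. Of the 6 thalamus and habenula markers, all were listed and none was at 0, and their sum was 58.2 to 70.4 CPM in NS and 65.6 to 81.9 CPM in WS. Tcf7l2 was at 14.0 CPM in WS replicate 3 and at 6.34 to 8.20 CPM in the others, and Slc17a6 at 40.7 CPM and at 23.7 to 34.3 CPM. Prkcd and the habenular marker Tac2 were lowest of the 6 libraries in WS replicate 3, at 7.96 CPM against 8.68 to 13.9 and at 7.89 CPM against 10.2 to 15.5. Lef1 was highest there, at 10.5 CPM against 5.43 to 7.79, and the habenular marker Gpr151 was under 1 CPM in every library (0.378 to 0.821). The part of these cells in the Chrna6 and Chrna3 values was not tested.

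**Figure D3:**
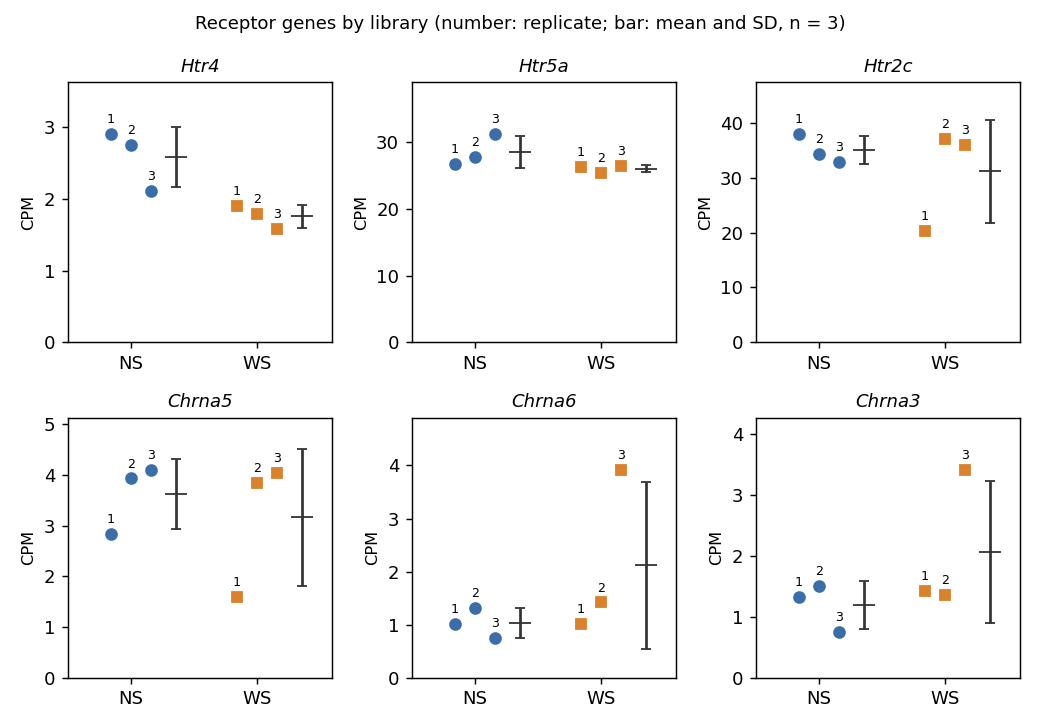
CPM of Htr4, Htr5a, Htr2c, Chrna5, Chrna6 and Chrna3 in each library, with the replicate number above each point and the group mean and SD (n = 3) beside the points; each axis starts at 0. Htr4 and Htr5a show WS below NS, while the other 4 genes show 1 WS library apart from the rest: replicate 1 for Htr2c and Chrna5, and replicate 3 for Chrna6 and Chrna3.

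**Figure D4:**
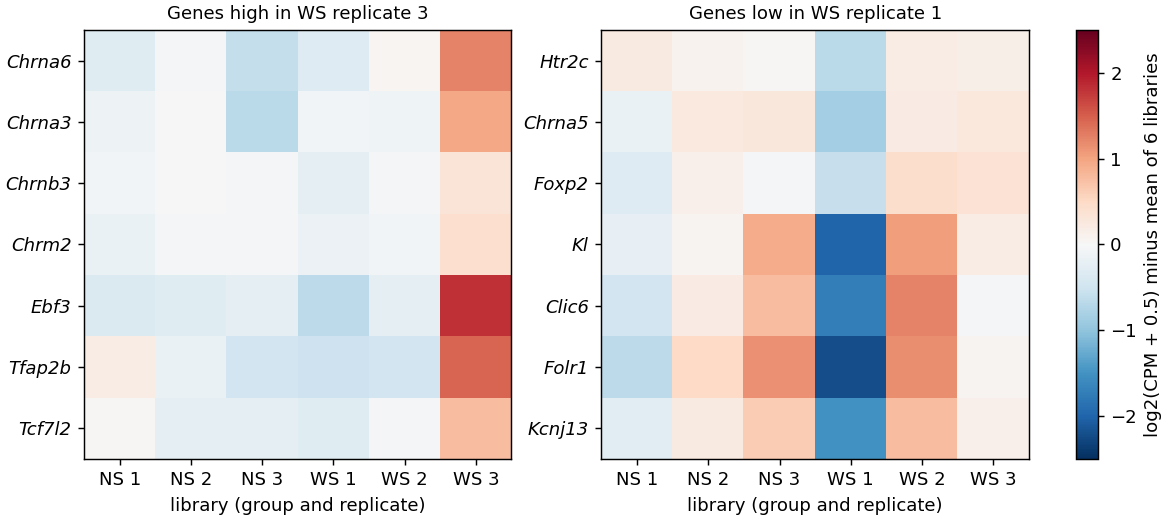
Log2(CPM + 0.5) of each gene minus its mean over the 6 libraries, as colour, for receptor genes and other genes that were high in WS replicate 3 (left) or low in WS replicate 1 (right). Chrna6 deviated by 1.24 and Ebf3 by 1.82 in WS replicate 3, and Chrna5 by -0.84, Htr2c by -0.67 and the choroid plexus marker Kl by -2.01 in WS replicate 1.

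Some genes of nicotinic subunits lie in clusters. Chrna5, Chrna3 and Chrnb4 lie side by side within 67.9 kb (chr9:54980880-55048779), Chrna5 on the plus strand and the others on the minus strand, and Chrnb3 and Chrna6 lie within 45.2 kb (chr8:27368711-27413944) on opposite strands. Chrnb3, with 3.48 kb between it and Chrna6, was counted 55, 59 and 58 times in NS and 51, 58 and 75 times in WS, a log2 fold change of 0.07 (SE 0.20). Its highest value was also in WS replicate 3, but by far less. Chrna5, an accessory subunit of deep-layer cortex, was counted 45, 63 and 66 times in NS and 27, 62 and 64 times in WS. It was low in WS replicate 1, where it ranked 32 of 13747 genes for a low value, and was at 64 counts in WS replicate 3, inside its NS range. Of the 4 layer markers the deep-layer genes Foxp2 (8.71 CPM against 10.5 to 18.1 CPM) and Fezf2 (44.0 CPM against 45.5 to 56.5 CPM) were also lowest in WS replicate 1. In that library Cux2, of the upper layers, was highest, at 208 CPM against 166 to 182 CPM, Rorb was at 50.7 CPM, inside the range of the others, and Tbr1, a deep-layer gene of the excitatory list, was at 204 CPM against 182 to 215 CPM. Their part in the Chrna5 value was not tested.

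The promoters of the 3 neighbours in the Chrna5, Chrna3 and Chrnb4 cluster are shown because these genes share a locus while Chrna3 was high in WS replicate 3, Chrna5 was low in WS replicate 1 and the few counts of Chrnb4 did neither, and that of Htr5a because its groups did not overlap. They span 250 bases before to 50 after the start of the gene (RefSeq, GRCm38.p6), and capitals mark the GC box (GGGCGG, or CCGCCC on the other strand). The positions are chr9:54980630-54980929 (plus strand) for Chrna5, chr9:55026513-55026812 (minus) for Chrna3, chr9:55048495-55048794 (minus) for Chrnb4 and chr5:27841697-27841996 (plus) for Htr5a.
Chrna5: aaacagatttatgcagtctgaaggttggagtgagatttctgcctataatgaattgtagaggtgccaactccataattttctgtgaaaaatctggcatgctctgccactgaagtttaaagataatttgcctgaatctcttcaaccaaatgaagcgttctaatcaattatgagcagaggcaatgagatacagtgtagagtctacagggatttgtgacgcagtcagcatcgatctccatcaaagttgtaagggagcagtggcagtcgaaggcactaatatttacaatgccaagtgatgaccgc
Chrna3: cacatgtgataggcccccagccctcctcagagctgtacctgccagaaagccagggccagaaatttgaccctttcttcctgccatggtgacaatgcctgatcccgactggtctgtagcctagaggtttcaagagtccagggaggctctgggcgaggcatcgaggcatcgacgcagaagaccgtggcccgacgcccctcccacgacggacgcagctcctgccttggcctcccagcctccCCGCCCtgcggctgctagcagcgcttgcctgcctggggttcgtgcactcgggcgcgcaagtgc
Chrnb4: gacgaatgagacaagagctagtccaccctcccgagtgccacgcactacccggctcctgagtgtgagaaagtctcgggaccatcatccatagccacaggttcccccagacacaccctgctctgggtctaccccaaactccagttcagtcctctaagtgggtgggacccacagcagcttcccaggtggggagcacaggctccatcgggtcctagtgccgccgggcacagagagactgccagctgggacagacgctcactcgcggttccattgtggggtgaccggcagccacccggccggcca
Htr5a: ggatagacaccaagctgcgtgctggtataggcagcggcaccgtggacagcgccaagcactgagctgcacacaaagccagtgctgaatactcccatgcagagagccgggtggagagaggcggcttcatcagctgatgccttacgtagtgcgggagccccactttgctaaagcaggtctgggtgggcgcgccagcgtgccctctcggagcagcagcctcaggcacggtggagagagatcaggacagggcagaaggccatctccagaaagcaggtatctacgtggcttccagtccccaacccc

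Of these stretches, that of Chrna3 holds 1 GC box close to the start, and those of Chrnb4, Htr5a and Chrna5 hold none, although another promoter listed for Chrna5 does. The base composition differed, with 41.3% G and C in the Chrna5 stretch and 64.3%, 63.0% and 61.3% in those of Chrna3, Chrnb4 and Htr5a. Promoters were listed for 26 of the 37 receptor genes, 30 in all, and Chrna6 was not among them. The GC box was found in 60.0% of these 30 and in 35.7% of all 32851 listed promoters. The full cAMP response element TGACGTCA was found in 0 of the 30 and in 1.79% of all, the AP-1 site TGAGTCA in 6.67% and 5.20%, and the TATA box TATAAA in 6.67% and 13.6%, with both strands searched. A match is a description of the letters only.

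Of the remaining nicotinic subunits, Chrna1 and Chrnb1, known from the muscle receptor, had 13 to 23 and 6 to 16 counts, with log2 fold changes of -0.30 (SE 0.31) and -0.12 (SE 0.43). Chrnb4, the usual partner of Chrna3 in ganglia, had 15, 6 and 4 counts in NS and 15, 7 and 9 in WS, and Chrna2, a subunit of a few cortical interneurons, had 4 to 14 counts. Neither was tested, and the 9 counts of Chrnb4 in WS replicate 3 were inside its NS range.

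Other genes of the 3 transmitter systems were examined from fixed lists. Of 21 genes for synthesis, storage, reuptake and breakdown 17 were listed and 15 tested, with 9 higher and 6 lower, a median log2 fold change of 0.03, and 0 at an unadjusted p under 0.05 (edgeR's quasi-likelihood test). Ache, which breaks down acetylcholine, was at 59.0 ± 2.36 CPM in NS and 62.9 ± 3.94 CPM in WS (SD, n = 3 each). The largest log2 fold change was that of the low-affinity monoamine transporter gene Slc22a3, 0.52 (SE 0.26), at 37, 26 and 23 counts in NS and 47, 47 and 32 in WS (unadjusted p = 0.0705, and unadjusted p = 0.0411 with the replicate block, edgeR's quasi-likelihood test).

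Of 27 genes of G proteins and effectors 26 were listed and tested, 15 were higher and 11 lower, the median log2 fold change was 0.00, and 0 had an unadjusted p under 0.05 by edgeR's quasi-likelihood test. Gnas, the Gs subunit and the most abundant of them, had a log2 fold change of 0.07 (SE 0.08). Gnai1, a Gi subunit, was at 234, 231 and 225 CPM in NS and 196, 220 and 208 CPM in WS without overlap (log2 fold change -0.15, SE 0.07, unadjusted p = 0.0691 by edgeR's quasi-likelihood test), and 3 of the 26, with Prkacb and Adcy9, had all WS values below NS, against 3.16% of all genes, and 1, Plcb3, above, against 3.11%.

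Among 11 genes of receptor desensitization 6 were higher and 5 lower, with a median log2 fold change of 0.01, and Rgs4, the most abundant, had -0.09 (SE 0.08). Of 8 genes of nicotinic receptor assembly and modulation 4 were higher and 4 lower, with a median of 0.00. Lynx1, a brake on nicotinic receptors and the most abundant, was at 477, 452 and 445 CPM in NS and 575, 444 and 441 CPM in WS, with only WS replicate 1 apart. In both lists 0 genes had an unadjusted p under 0.05 by edgeR's quasi-likelihood test.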

How the data were processed

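S1 cortex RNA of 3 NS and 3 WS samples was sequenced on the DNBseq platform. The authors discarded rRNA reads and reads of poor quality before alignment with HISAT2, and the submitters' processing notes name mm10. The counting tool is not given in the sources used here. The authors deposited, per gene, a mean estimated count over the 6 libraries with the SD. They also deposited 1 z score per library, made by taking the count minus that mean over that SD. The column of WS replicate 3 carries an added letter in its name and was assigned by its number and by the WS mean column of the authors. Deposited columns of the authors' own comparisons (fold changes and p-values) were not used. Counts were computed back as mean plus z-score times SD and rounded. In the 13415 genes precise enough, 91.0% of the values were within 0.1 of a whole number, as were all 6 values of 34 of the 37 receptor genes. No pair of libraries agreed within sampling noise (lowest chi-square per degree of freedom 4.29).

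Counts were tested with edgeR 4.0.16 (TMM, filterByExpr, quasi-likelihood test, R 4.3.3) with Benjamini-Hochberg adjustment over 13747 genes, in which the biological coefficient of variation was 10.1%. DESeq2 1.42.0 was an alternative, with other normalizations and filters, the replicate block and each library left out. Replicate numbers come from the sample titles, and the labels do not say that same-numbered samples share an animal. Deviations from the group mean correlated at Pearson's r 0.34, 0.23 and 0.12 in same-numbered NS and WS samples 1, 2 and 3. In the other pairs of an NS and a WS sample r was -0.26 to 0.04. All were over 13688 genes, which are not independent replicates. Exon lengths and positions came from GENCODE M21 on GRCm38 and promoters from RefSeq. The test was checked on simulated counts. The range of the depth is given in the report, and counting error grows as counts fall.

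The symbol rule uses no value, but these receptor families, the pathway lists and the marker lists were chosen with earlier results of these data known. Genes were described one by one where the unadjusted p was under 0.05, where NS and WS values did not overlap, for the highest levels per kilobase in each class (2 genes a class), and for the largest absolute log2 fold change in each class. The other members, and Ebf3, Tfap2b, Arc and Agt, were described after their values were seen. Reads and protein data were not analysed here. The single values of a few genes are not reported here, and they stay in the counts and medians.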

Additional observations from a re-analysis of the deposited data

How the results depend on the processing

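The count of 0 receptor genes with an adjusted p under 0.05 held in all alternatives run, with a lowest adjusted p of 0.8842 in any of them. With the replicate block, the all-gene count at an adjusted p under 0.05 rose from 5 to 11. Receptor genes higher in WS at an unadjusted p under 0.05 rose from 0 to 2 (6.06%, against 1.38% of all genes). No other call of a receptor gene changed with the block. RLE size factors, upper-quartile normalization and no filter on low counts each gave 1 higher receptor gene at an unadjusted p under 0.05, Chrna6. Its unadjusted p in the main fit was 0.0501 (edgeR's quasi-likelihood test). For these settings the share of all genes at that threshold is not given here. DESeq2 gave 8 genes over all at an adjusted p under 0.05. At an unadjusted p under 0.05 it gave 1 higher receptor gene (Chrna6) and 0 lower, and its share of all genes there is not given here.

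Leaving out each library in turn, the all-gene count ran from 0 to 9, the receptor genes higher at an unadjusted p under 0.05 from 0 to 2 and lower from 0 to 3, those with all WS values above NS from 0 to 1 and below NS from 2 to 6. Without WS replicate 1, where 6 of 34 receptor genes (17.6%) lay below, 8.63% of all genes did, against 3.16% with all libraries, since groups of unequal and smaller size separate more often. Over the 6 fits that leave out a library, the shares of all genes were 0.649% to 2.30% higher and 0.159% to 2.10% lower at an unadjusted p under 0.05, and 5.78% to 9.89% with all WS values above NS and 5.57% to 10.4% below. Without WS replicate 1, 3 receptor genes (8.82%) were lower at an unadjusted p under 0.05, against 0.822% of all genes, and 2 (5.88%) higher, against 2.27%. Without WS replicate 2, 2 of 34 (5.88%) were higher, against 0.866% of all genes, and without WS replicate 3, 1 was lower and 1 higher, against 2.10% and 2.30%. The median log2 fold change ran from -0.123 to -0.047 for serotonin, -0.079 to 0.015 for adrenergic, -0.078 to 0.04 for muscarinic and -0.076 to 0.045 for nicotinic receptor genes. Without Htr2c, an alternative chosen after seeing the data, the summed serotonin receptor level differed by -1.43 CPM per kilobase (WS minus NS) in place of -1.85. Signs changed within the ranges of Htr1a (-0.055 to 0.159), Adra1d (-0.085 to 0.181), Adrb1 (-0.184 to 0.003), Chrm1 (-0.188 to 0.041), Chrm4 (-0.097 to 0.135), Chrm2 (-0.044 to 0.27), Chrna4 (-0.09 to 0.018) and Chrnb2 (-0.064 to 0.045). With 1 library fewer, fewer samples entered each fit, and the causes of these shifts were not tested. Members below 100 counts had the widest intervals, and in Chrna6, Chrna3 and Chrna5 among them 1 library stood apart. The sources of this width were not tested.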
